A study of Homo sapiens with 9 samples.

Results

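The RAS-RAF-MEK-ERK cascade was followed at the mRNA level through 7 of its genes, NRAS, BRAF, ARAF, KSR1, MAP2K1, MAP2K2 and MAPK3, chosen by gene symbol from the 62710 genes of the deposited table. All 7 passed the filter of a mean of at least 10 normalized counts and were among the 15230 genes tested. The cells were A375R, a derivative of the A375 human melanoma line, whose growth is driven by a mutant BRAF, selected for resistance to the RAF inhibitor PLX4032 and cultured with that inhibitor. Libraries came from cells given the solvent DMSO, 10 µM R4VPL3-1 or 10 µM VHL-r for 2 h, with 3 biological repeats of each and 9 libraries in all. R4VPL3-1 is a PROTAC-like molecule that joins a binder of the ubiquitin ligase RNF4 to a recruiter of the ubiquitin ligase VHL, and VHL-r is the recruiter alone. The controls are labelled as wild type, with no dose, and their DMSO treatment is taken from the study's methods. The column headers give 2 h for control replicates 2 and 3 and no time for control replicate 1. All groups therefore share the resistant line, which limits them to a single cell background.

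In this cascade a membrane-bound RAS GTPase, switched on by growth factor receptors, brings RAF kinases to the membrane, RAF phosphorylates the MEK kinases, and MEK phosphorylates the ERK kinases, which act on many cytoplasmic and nuclear proteins. Of the 7 genes, NRAS encodes a GTPase rather than a kinase, BRAF and ARAF encode RAF kinases, KSR1 encodes a scaffold related to RAF, MAP2K1 and MAP2K2 encode MEK1 and MEK2, and MAPK3 encodes ERK1. In melanoma the cascade is commonly activated by mutation of BRAF or NRAS, and reactivation of it is a known route to resistance against RAF inhibitors. Signalling through it is controlled mainly by phosphorylation and by feedback genes that ERK induces, neither of which is read by the mRNA of the kinases themselves.

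Of the 7 mRNAs, NRAS alone differed past the threshold in any comparison. It fell by 12.8% in cells given R4VPL3-1 relative to DMSO, and the other 6 mRNAs passed the threshold in none of the 3 comparisons. The sizes of difference that the data leave room for are given with each gene. Listed genes downstream of ERK moved far more in the same libraries. However, that list, like the members, was chosen with earlier results of these data known. The listed genes are described after the members.

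The 7 genes lie on 7 chromosomes of GRCh38. NRAS (ENSG00000213281) is on chromosome 1 from 114704469 to 114716771, BRAF (ENSG00000157764) on chromosome 7 from 140719327 to 140924929, and ARAF (ENSG00000078061) on chromosome X from 47561205 to 47571908. KSR1 (ENSG00000141068) is on chromosome 17 from 27456448 to 27626438, and MAPK3 (ENSG00000102882) on chromosome 16 from 30114105 to 30123506. MAP2K1 (ENSG00000169032) is on chromosome 15 from 66386837 to 66491656, and MAP2K2 (ENSG00000126934) on chromosome 19 from 4090321 to 4124122. The values count reads over all exons of each gene, 7 exons in the canonical transcript of NRAS, 16 in ARAF, 18 in BRAF, 21 in KSR1, 11 in each MEK gene and 9 in MAPK3.

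Because NRAS was the member that moved, the 250 bases before its RefSeq start are shown beside those of a RAF and a MEK gene that did not pass the threshold. The windows are chr1:114716772-114717021 (minus strand) for NRAS, chrX:47560955-47561204 (plus strand) for ARAF and chr19:4124123-4124372 (minus strand) for MAP2K2, from RefSeq on GRCh38.p14, and all 7 members had an entry. Capitals mark the motifs GGGCGG (a GC box), CACGTG (an E-box) and CCAAT, read on both strands.
NRAS: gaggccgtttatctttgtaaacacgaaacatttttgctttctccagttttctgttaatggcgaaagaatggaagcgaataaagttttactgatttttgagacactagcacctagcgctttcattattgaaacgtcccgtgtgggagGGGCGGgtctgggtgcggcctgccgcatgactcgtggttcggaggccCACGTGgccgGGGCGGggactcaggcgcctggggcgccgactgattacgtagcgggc
ARAF: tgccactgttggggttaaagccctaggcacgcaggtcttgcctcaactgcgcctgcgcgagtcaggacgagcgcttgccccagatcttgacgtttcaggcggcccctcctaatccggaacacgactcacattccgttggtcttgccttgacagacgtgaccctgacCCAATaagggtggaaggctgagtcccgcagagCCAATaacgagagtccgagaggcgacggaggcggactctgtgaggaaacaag
MAP2K2: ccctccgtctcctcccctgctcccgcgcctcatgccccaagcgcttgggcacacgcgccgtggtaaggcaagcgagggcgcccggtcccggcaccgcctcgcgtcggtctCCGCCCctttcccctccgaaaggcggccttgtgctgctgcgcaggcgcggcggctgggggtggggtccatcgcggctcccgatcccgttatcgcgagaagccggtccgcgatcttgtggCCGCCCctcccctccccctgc
The NRAS window holds 2 GC boxes and 1 E-box, the ARAF window 2 CCAAT boxes, and the MAP2K2 window 2 GC boxes. The E-box is not particular to NRAS, since the window of MAPK3, not shown, holds 1 E-box and 6 GC boxes. MAPK3 did not pass the threshold, and a link between motifs and the NRAS difference was not tested. Among 35116 RefSeq promoters of the same length, 42.6% hold a GC box, 6.34% the E-box and 32.0% a CCAAT box. The NRAS window is 54.4% G and C with 20 CpG pairs, the ARAF window 59.2% with 18, and the MAP2K2 window 74.0% with 32, against a median of 58.0% G and C over all these promoters. The ETS core CCGGAAG, the CRE TGACGTCA, the AP-1 site TGAGTCA and the TATA box TATAAA are in none of the 7 members' windows, which concerns these letters in this window only. The BRAF window lies within the annotated gene, and the MAP2K1 and MAPK3 windows hold 75 and 89 annotated exon bases. For genes with more than 1 RefSeq entry, the entry that starts farthest upstream was used.

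Levels were read as normalized counts, the reads of a gene divided by the authors' size factor for the library. At the recovered depth of 26435568 to 32085626 reads per library, NRAS was covered by 2814 to 3604 reads and KSR1 by 52 to 94. Counting error alone gives a coefficient of variation of at most 3.82% for each member other than KSR1, and of 11.5% to 11.9% for KSR1. No pair of libraries of a treatment differed by as little as sampling noise.

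To compare genes, the normalized counts were divided by length, taken as the union of all annotated exons. On that scale the order was NRAS, ARAF, MAP2K1, MAP2K2, MAPK3, BRAF and KSR1. NRAS lay between 647 and 774 normalized counts per kilobase over the 9 libraries and ARAF between 651 and 735, so this pair could not be ordered. Every later step in the order was larger than the spread, with MAP2K1 at 536 to 620, MAP2K2 at 411 to 457, MAPK3 at 195 to 244, BRAF at 28.7 to 36.0 and KSR1 at 4.19 to 7.56. The order of the first 4 depends on the length. With the canonical transcript alone it became MAP2K2, at 1847 to 2057, MAP2K1, at 1359.6 to 1573, ARAF, at 933 to 1054, and NRAS, with no overlap between neighbours. MAPK3, BRAF and KSR1 held ranks 5, 6 and 7 on both lengths. The BRAF exons span 23.433 kb in union and 6.459 kb in the canonical transcript, so its level is 104 to 131 on the second scale. BRAF, the mutated driver in this line, thus lay below ARAF on both scales.

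**Figure D1:**
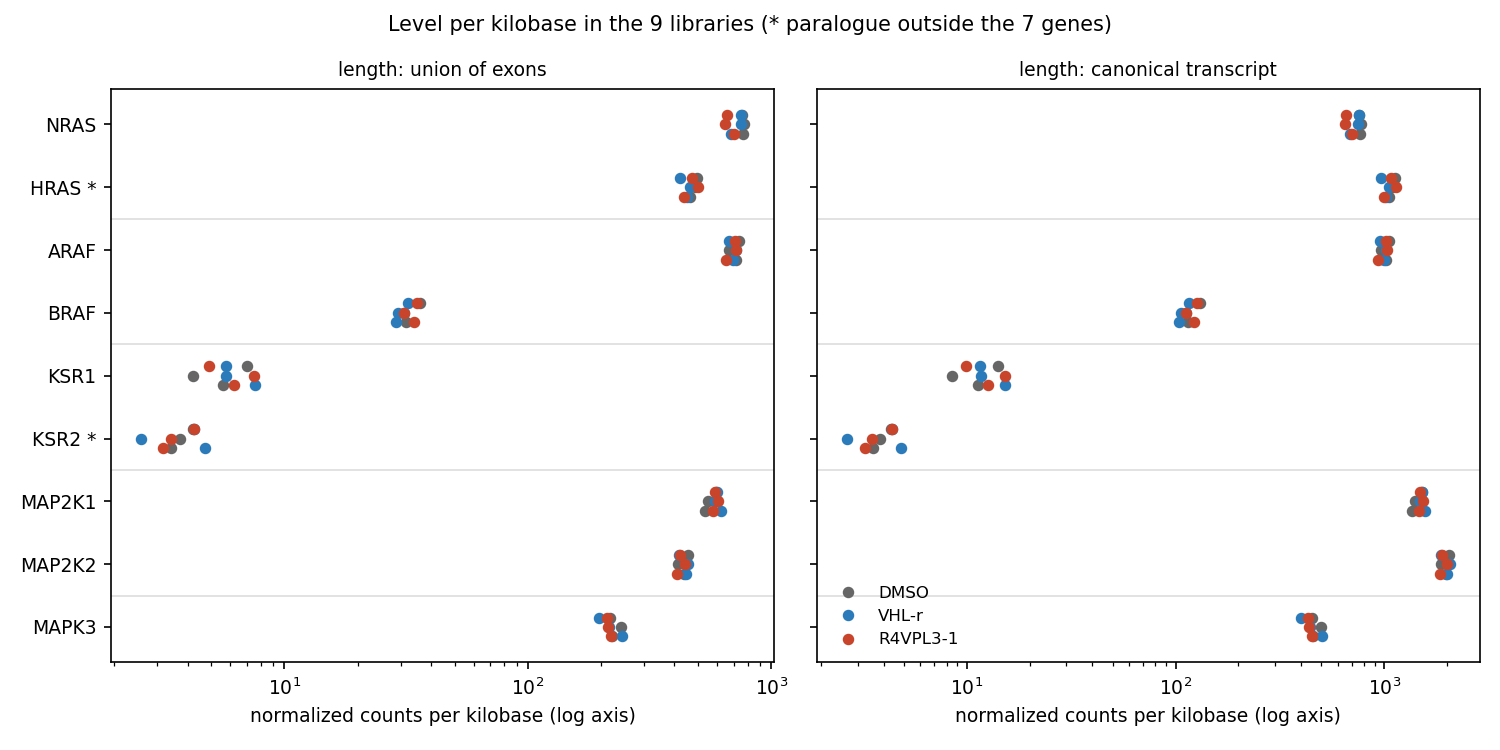
Normalized counts per kilobase on a log axis for the 7 genes and the paralogues HRAS and KSR2 (starred), with 1 point per library coloured by treatment; length is the union of exons on the left and the canonical transcript on the right. BRAF sits at 28.7 to 36.0 on the left and 104 to 131 on the right, below ARAF in both, and the treatments lie close together within each gene.

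The kinases MAP2K1 and MAP2K2 form the MEK tier, and their shares of it were compared between treatments without a test. With union lengths, MAP2K1 made up 56.3% ± 1.13 (SD, n = 3) of MEK mRNA in DMSO, 57.8% ± 1.45 in VHL-r and 58.1% ± 0.407 in R4VPL3-1. The lengths set which of the pair leads, since with canonical transcripts MAP2K1 was 42.0% ± 1.12 of MEK mRNA in DMSO, 43.5% ± 1.46 in VHL-r and 43.9% ± 0.411 in R4VPL3-1. The differences in mean were small, and every R4VPL3-1 library lay above every DMSO library. For single genes, 38.0% of all tested did not overlap in that comparison, and neither MEK gene was among them. With union lengths the MAP2K1 share spanned 57.7% to 58.4% in R4VPL3-1, 55.0% to 57.0% in DMSO and 56.1% to 58.9% in VHL-r. With canonical lengths it spanned 43.4% to 44.2% in R4VPL3-1, 40.8% to 42.8% in DMSO and 41.9% to 44.7% in VHL-r.

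NRAS encodes a classical RAS protein. Its normalized counts were 3273, 3350.0 and 3321 in DMSO replicates 1, 2 and 3, 3262, 3242 and 2952 in VHL-r, and 2837, 2799.7 and 3043 in R4VPL3-1. All 3 R4VPL3-1 libraries lay below all 3 DMSO libraries, and so did all 3 VHL-r libraries by a narrow margin, while 1 VHL-r library lay within the range of R4VPL3-1. The means were 3315 ± 39.1, 3152 ± 174 and 2893 ± 131 (SD, n = 3). In R4VPL3-1 against DMSO the log2 fold change was -0.20 (standard error 0.050, limma adjusted p = 0.00566), a fall of 12.8% with a 95% interval from -18.9% to -6.23%. The adjusted p was between 0.00217 and 0.0345 over 19 alternatives without a replicate block, and NRAS was called in all 19. In a bulk sample, less RNA per cell and fewer cells of a type cannot be told apart.

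In VHL-r against DMSO the NRAS difference was -5.00% (interval -11.6% to 2.12%, limma adjusted p = 0.352). In R4VPL3-1 against VHL-r it was -8.18% (interval -14.6% to -1.30%), with a limma adjusted p of 0.363 and an unadjusted limma p of 0.023. The larger response to the full molecule than to its VHL-binding part was therefore not established at the threshold, although the interval of that difference lies below 0. VHL-r replicate 3 was the lowest of its group, and without it the R4VPL3-1 against VHL-r log2 difference was -0.17 in place of -0.12 (limma adjusted p = 0.14).

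The 2 tested genes whose profile over the 9 libraries was nearest to that of NRAS were RYK, a receptor-like kinase that binds Wnt ligands, and ASB8, a substrate adaptor of cullin ubiquitin ligases. Their centred log2 values differed from those of NRAS by a root mean square of 0.028 and 0.029. RYK had 2898 ± 57.6 normalized counts in DMSO, 2715 ± 119.8 in VHL-r and 2499.8 ± 27.6 in R4VPL3-1 (SD, n = 3), and its log2 fold change in R4VPL3-1 against DMSO was -0.21 (limma adjusted p = 0.00178). ASB8 had a log2 fold change of -0.17 in that comparison and did not pass (limma adjusted p = 0.0654). Both genes were picked by likeness to NRAS over these same libraries, so fold changes near that of NRAS follow from the choice.

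HRAS, a further classical RAS gene, is not a member and was read beside NRAS. It differed by -7.41% in VHL-r (interval -15.4% to 1.33%, limma adjusted p = 0.246) and by -2.44% in R4VPL3-1 (interval -10.8% to 6.76%, limma adjusted p = 0.735) against DMSO and passed in neither. The comparisons with DMSO share the same 3 control libraries, so a like difference in both is not 2 separate observations.

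**Figure D2:**
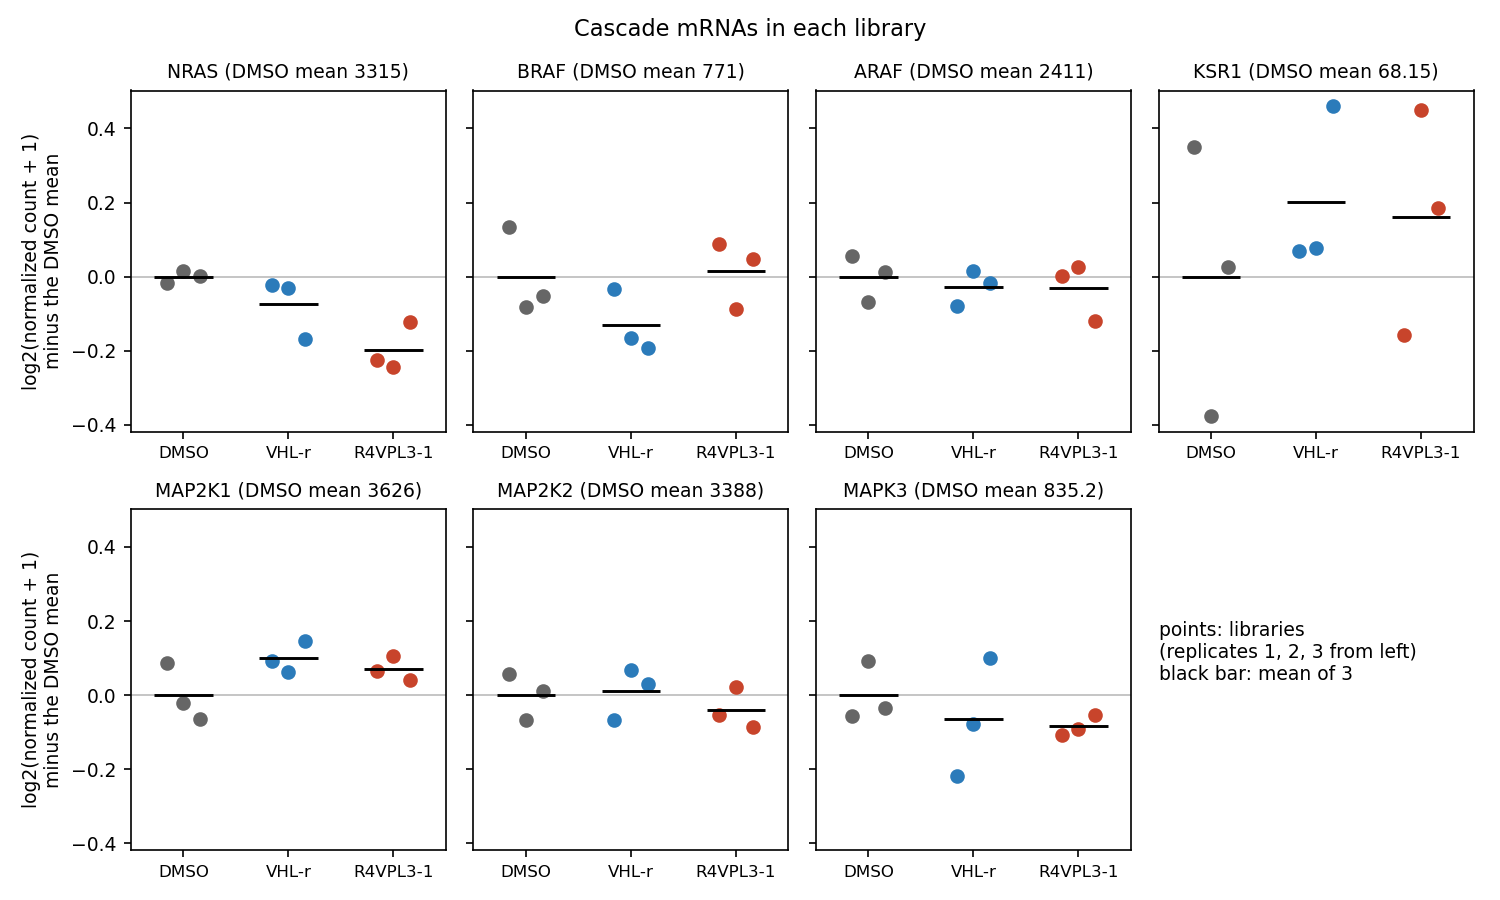
Log2(normalized count + 1) of each gene minus its DMSO mean, with 1 point per library (replicates 1, 2 and 3 from left to right in each treatment) and a black bar at the mean of 3; the DMSO mean in normalized counts is in each title. The 3 R4VPL3-1 points of NRAS lie below its 3 DMSO points, the other 6 genes overlap between R4VPL3-1 and DMSO, and KSR1 has the widest scatter.

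BRAF encodes the RAF kinase that the PLX4032 in the culture targets. It had normalized counts of 844.5, 726.1 and 742.3 in DMSO, 751.5, 686.0 and 672.9 in VHL-r, and 818.0, 723.3 and 795.4 in R4VPL3-1. The groups overlapped in each comparison, with 1 high library in DMSO and a lower range in VHL-r. BRAF differed by -8.65% in VHL-r against DMSO (interval -18.0% to 1.74%, limma adjusted p = 0.256) and by 1.12% in R4VPL3-1 against DMSO (interval -9.21% to 12.6%, limma adjusted p = 0.912). In R4VPL3-1 against VHL-r it was 10.7% higher, with an interval from -0.615% to 23.3% and a limma adjusted p of 0.553, the largest positive difference of any member in that comparison. Of the 100-base windows of BRAF transcripts, 0.772% also occur in another gene, the pseudogene BRAFP1 among them.

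ARAF encodes a RAF kinase of weaker catalytic activity. The libraries held 2506, 2296 and 2432 in DMSO, 2281, 2434 and 2380.3 in VHL-r, and 2412, 2451 and 2218 normalized counts in R4VPL3-1. The 3 groups spanned nearly the same range. The differences were -1.90% in VHL-r against DMSO (interval -9.08% to 5.86%, limma adjusted p = 0.784), -2.14% in R4VPL3-1 against DMSO (interval -9.31% to 5.60%, limma adjusted p = 0.725) and -0.246% between the compounds (interval -7.55% to 7.64%, limma adjusted p = 0.994). A change of 10% in either direction in ARAF therefore lies outside all 3 intervals.

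KSR1, the scaffold that holds RAF, MEK and ERK together, was the rarest member. Its normalized counts were 85.4, 51.2 and 67.9 in DMSO, 70.05, 70.4 and 92.2 in VHL-r, and 59.8, 91.5 and 76.0 in R4VPL3-1. Libraries of every group lay in the same range, with a coefficient of variation of 16.4% to 25.1% within groups. The differences were 15.0% in VHL-r against DMSO (interval -14.1% to 54.0%, limma adjusted p = 0.559) and 11.7% in R4VPL3-1 against DMSO (interval -16.6% to 49.6%, limma adjusted p = 0.625). Between the compounds the difference was -2.88% (interval -27.5% to 30.05%, limma adjusted p = 0.983). Counting error alone gives a coefficient of variation of 11.5% to 11.9% at this depth, below the spread within groups, and the intervals leave falls and rises of KSR1 within these bounds possible. An unnamed gene on the same strand covers 3.54% of the exon bases of KSR1, where reads may not have been assigned. Its paralogue KSR2 was as rare, at 69.3 ± 7.27 normalized counts in DMSO, 70.5 ± 20.5 in VHL-r and 66.0 ± 10.3 in R4VPL3-1 (SD, n = 3), and was not called.

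MAP2K1 encodes MEK1. In normalized counts it measured 3849, 3566 and 3463 in DMSO, 3859, 3781 and 4006 in VHL-r, and 3791, 3895 and 3729.9 in R4VPL3-1. DMSO replicate 1 lay within the treated range and the other 2 DMSO libraries lay below all 6 treated libraries. MAP2K1 was 7.12% higher in VHL-r than in DMSO with an interval from -0.00757% to 14.8% (limma adjusted p = 0.166), and 5.02% higher in R4VPL3-1 with an interval from -1.96% to 12.5% (limma adjusted p = 0.314). Neither passed, and in VHL-r the unadjusted limma p was 0.0502, the nearest to 0.05 of any member not called against DMSO. Between the compounds the difference was -1.95% (interval -8.48% to 5.03%, limma adjusted p = 0.931).

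MAP2K2 encodes MEK2. Its normalized counts were 3523, 3229 and 3412 in DMSO, 3232, 3552 and 3459 in VHL-r, and 3265, 3438 and 3189 in R4VPL3-1. The 3 groups overlapped throughout. The differences were 0.755% in VHL-r (interval -6.31% to 8.35%, limma adjusted p = 0.919) and -2.66% in R4VPL3-1 (interval -9.48% to 4.68%, limma adjusted p = 0.635) against DMSO, and -3.39% between the compounds (interval -10.2% to 3.90%, limma adjusted p = 0.874).

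MAPK3 encodes ERK1, a kinase at the end of the cascade. Its normalized counts were 801.8, 889.4 and 814.3 in DMSO, 716.5, 791.0 and 895.2 in VHL-r, and 774.1, 783.0 and 804.0 in R4VPL3-1. VHL-r held both the lowest and the highest library of all 9. The differences were -4.40% in VHL-r (interval -14.2% to 6.54%, limma adjusted p = 0.624) and -5.67% in R4VPL3-1 (interval -15.4% to 5.12%, limma adjusted p = 0.465) against DMSO, and -1.33% between the compounds (interval -11.5% to 9.95%, limma adjusted p = 0.977).

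**Figure D3:**
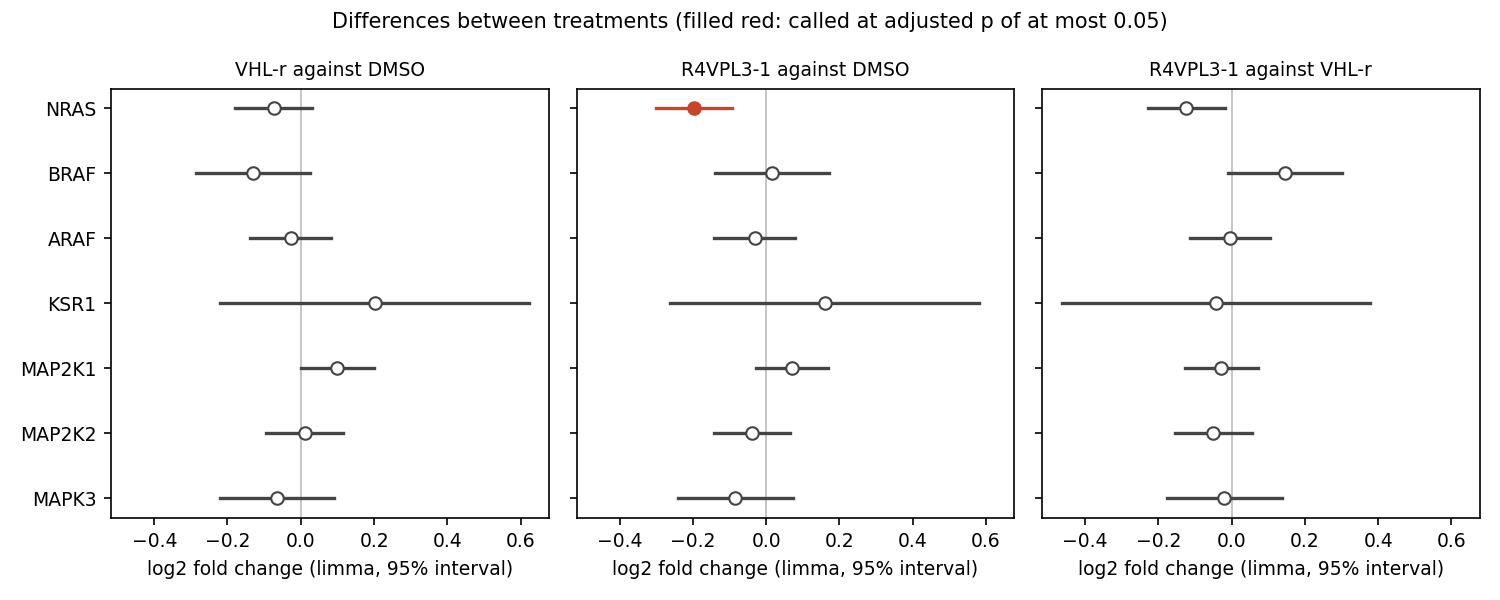
Log2 fold changes of the 7 genes with 95% intervals from limma, in 3 comparisons on a common axis; filled red marks a call at an adjusted p of at most 0.05. NRAS in R4VPL3-1 against DMSO, at -0.20, is the filled point, and KSR1 has the widest intervals.

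Read over all 7 genes, 0 were called in VHL-r against DMSO by limma, by edgeR or by DESeq2, and 0 had an unadjusted limma p under 0.05. Over all genes tested, 10.3% were called higher and 9.51% lower in that comparison. In R4VPL3-1 against DMSO, 1 was called, lower, by each of the 3 tools, where 11.8% of all genes were called lower and 13.1% higher. In R4VPL3-1 against VHL-r, 0 were called by any of the 3 tools, and 1, NRAS, had an unadjusted limma p under 0.05, where 1.14% of all genes were called higher and 0.729% lower. With 7 genes, a share of 1 in 7 is near the background of the comparison with DMSO. Groups did not overlap for 1 member, NRAS, in VHL-r against DMSO, where 34.3% of all genes did not overlap, for 1, again NRAS, in R4VPL3-1 against DMSO (38.0%), and for 0 in R4VPL3-1 against VHL-r (14.1%). The smallest p that an exact permutation of 3 libraries against 3 allows for a single gene is 0.1, which is why calls rest on limma across all genes.

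In absolute size, the median log2 fold change of the 7 was 0.074 in VHL-r and 0.071 in R4VPL3-1 against DMSO, where it was 0.12 and 0.14 over all genes tested. Between the compounds it was 0.042 for the 7 and 0.071 for all genes. The signed medians of the 7 were -0.028, -0.031 and -0.029 in VHL-r against DMSO, R4VPL3-1 against DMSO and R4VPL3-1 against VHL-r, and -0.0045, -0.0063 and -0.0056 over all genes.

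The other genes of the cascade were read from lists chosen by function, with earlier results of these data known. Over all genes tested, 10.3% were called higher and 9.51% lower in VHL-r against DMSO, and 13.1% and 11.8% in R4VPL3-1 against DMSO. Between the compounds these shares were 1.14% and 0.729%. Among 25 RAS, phosphatase, 14-3-3 and scaffold genes beside the members, 1 was called higher and 0 lower in VHL-r against DMSO by limma, edgeR and DESeq2 alike, and 3 had an unadjusted limma p under 0.05 in either direction. In R4VPL3-1 against DMSO, 1 was called higher and 1 lower, and DESeq2 called 2 lower. In R4VPL3-1 against VHL-r, 0 were called by limma, edgeR or DESeq2, and 0 had an unadjusted limma p under 0.05. YWHAG, a 14-3-3 protein of the family that binds phosphorylated RAF, rose with a log2 fold change of 0.16 in each compound (limma adjusted p = 0.00407 in VHL-r and 0.00305 in R4VPL3-1), from 13695 ± 116 normalized counts in DMSO to 15293 ± 309.6 in VHL-r and 15300.3 ± 5.34 in R4VPL3-1 (SD, n = 3). YWHAZ, a further 14-3-3 protein, fell in R4VPL3-1 by 0.14 on the log2 scale (limma adjusted p = 0.0243), a call that was lost with no filter on low values and without DMSO replicate 2, R4VPL3-1 replicate 1 or R4VPL3-1 replicate 2, with an adjusted p between 0.0133 and 0.168 over 19 alternatives. Without each of those 3 libraries 0 genes of the list were called lower in R4VPL3-1 against DMSO, and without R4VPL3-1 replicate 3, 2 were. Without VHL-r replicate 3, 2 were called higher in that comparison and 1 was called lower in VHL-r against DMSO.

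Upstream of RAS, 26 of 28 listed receptors, adaptors, exchange factors and GTPase-activating proteins were tested, 2 being under the filter. In VHL-r against DMSO 2 were called higher and 5 lower, and in R4VPL3-1 against DMSO 5 were called higher and 4 lower. The shares over all genes tested were 10.3% higher and 9.51% lower in VHL-r, and 13.1% and 11.8% in R4VPL3-1. FGFR1, a fibroblast growth factor receptor, rose most in both, with log2 fold changes of 0.50 and 0.49 (limma adjusted p = 1.98e-05 and 1.72e-05), from 781.9 ± 67.0 normalized counts in DMSO to 1105 ± 49.2 in VHL-r and 1099 ± 66.3 in R4VPL3-1 (SD, n = 3). MET, the hepatocyte growth factor receptor, fell by 0.25 and 0.31 on the log2 scale, and RASA3, a GTPase-activating protein for RAS, by 0.26 in each. ERBB3, the neuregulin receptor, fell by 0.32 in R4VPL3-1 (limma adjusted p = 0.00415), a call lost with the robust option of limma (adjusted p = 0.0654). The count called lower in VHL-r was 3 without DMSO replicate 3 and 2 without VHL-r replicate 2, and the count called higher in R4VPL3-1 was 3 without DMSO replicate 2. Between the compounds, 0 were called by limma, edgeR or DESeq2 and 4 had an unadjusted limma p under 0.05. The median log2 fold change of the list was 0.0084 and 0.016 against DMSO.

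Directly downstream of ERK, 16 of 18 listed substrates were tested. BCL2L11, which encodes the pro-apoptotic protein BIM that ERK marks for degradation, rose by 1.54 and 1.58 on the log2 scale in VHL-r and R4VPL3-1 against DMSO (limma adjusted p = 7.04e-11 and 1.85e-11), from 283.2 ± 7.95 normalized counts in DMSO to 827.9 ± 106 and 849.5 ± 69.9 (SD, n = 3). MKNK2, a kinase that ERK activates and that phosphorylates eIF4E, rose by 1.06 and 0.98. The transcription factors ELK3 and ETS1 fell by 0.34 and 0.35 in VHL-r and by 0.55 and 0.39 in R4VPL3-1. In all, 4 rose and 3 fell in VHL-r, and 3 rose and 5 fell in R4VPL3-1. Among all genes tested, 10.3% rose and 9.51% fell in VHL-r, and 13.1% and 11.8% in R4VPL3-1, by the same calls. Between the compounds, 1.14% of all genes tested were called higher and 0.729% lower in R4VPL3-1. There ETS2 and ELK3 were lower in R4VPL3-1 by 0.25 and 0.20 on the log2 scale (limma adjusted p = 0.0185 and 0.0204). Both calls were lost without VHL-r replicate 2, R4VPL3-1 replicate 1 or R4VPL3-1 replicate 2, that of ELK3 also without VHL-r replicate 1 and that of ETS2 also without VHL-r replicate 3. Without R4VPL3-1 replicate 2, SRF, a transcription factor named here after its values were seen, was the 1 gene of the list called lower.

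The genes listed as transcribed in response to ERK moved most, beside the small differences of the cascade itself. The list was chosen with earlier results of these data known, so its contrast with the 7 genes is not a test. ERK activity was not measured in these libraries. Of 22 such genes, all tested, 4 rose and 16 fell in VHL-r against DMSO, and 4 rose and 17 fell in R4VPL3-1 against DMSO, with median log2 fold changes of -0.40 and -0.49. Among all genes tested, 10.3% rose and 9.51% fell in VHL-r, and 13.1% and 11.8% in R4VPL3-1. In R4VPL3-1 against VHL-r, 1 rose and 7 fell, with a median of -0.15, where 1.14% of all genes tested rose and 0.729% fell. The largest called changes in R4VPL3-1 against DMSO were those of the cytokine LIF, at -2.79, the immediate early factors FOS, at 2.74, and EGR1, at 2.19, and the early response gene IER3, at -1.99. LIF had 3845 ± 1082 normalized counts in DMSO, 966.8 ± 180.0 in VHL-r and 546.2 ± 82.9 in R4VPL3-1 (SD, n = 3). In VHL-r against DMSO they were EGR1, at 2.24, LIF, at -1.97, FOS, at 1.64, and MYC, at -1.54. Between the compounds DUSP6, the phosphatase that inactivates ERK, was 1.49 lower on the log2 scale in R4VPL3-1 (limma adjusted p = 5.66e-10), at 1719.8 ± 308 normalized counts against 4783 ± 146 in VHL-r (SD, n = 3). IER3 was lower by 1.43 and LIF by 0.82, and FOS was higher by 1.10. Without R4VPL3-1 replicate 3, 2 genes of the list were called higher between the compounds. With limma's robust option the calls of FOS and LIF between the compounds were lost (adjusted p = 0.0727 and 0.281). For the 7 cascade genes the largest difference between the compounds in size was 0.15, that of BRAF, which was not called.

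Of 21 tested JNK, p38 and ERK5 pathway kinases, which form the parallel MAP kinase routes, 5 were called higher and 1 lower in VHL-r against DMSO, and 2 higher and 1 lower in R4VPL3-1 against DMSO. The shares over all genes tested were 10.3% higher and 9.51% lower in VHL-r, and 13.1% and 11.8% in R4VPL3-1. MAP3K8, a kinase that can phosphorylate MEK without RAF, rose by 1.05 and 1.03 on the log2 scale in VHL-r and R4VPL3-1 (limma adjusted p = 0.000339 and 0.000324), from 34.7 ± 6.53 normalized counts in DMSO to 72.3 ± 8.56 and 71.0 ± 5.52 (SD, n = 3). MAP3K3, an activator of the ERK5 and p38 routes, rose by 0.35 and 0.28, and MAP3K1, which feeds JNK, fell by 0.36 in R4VPL3-1. The 5 called higher in VHL-r were 3 without DMSO replicate 1, DMSO replicate 3 or VHL-r replicate 1, and the 1 called lower was 0 without DMSO replicate 2, DMSO replicate 3, VHL-r replicate 2 or VHL-r replicate 3. Between the compounds 0 were called by limma, edgeR or DESeq2, and 1 had an unadjusted limma p under 0.05.

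**Figure D4:**
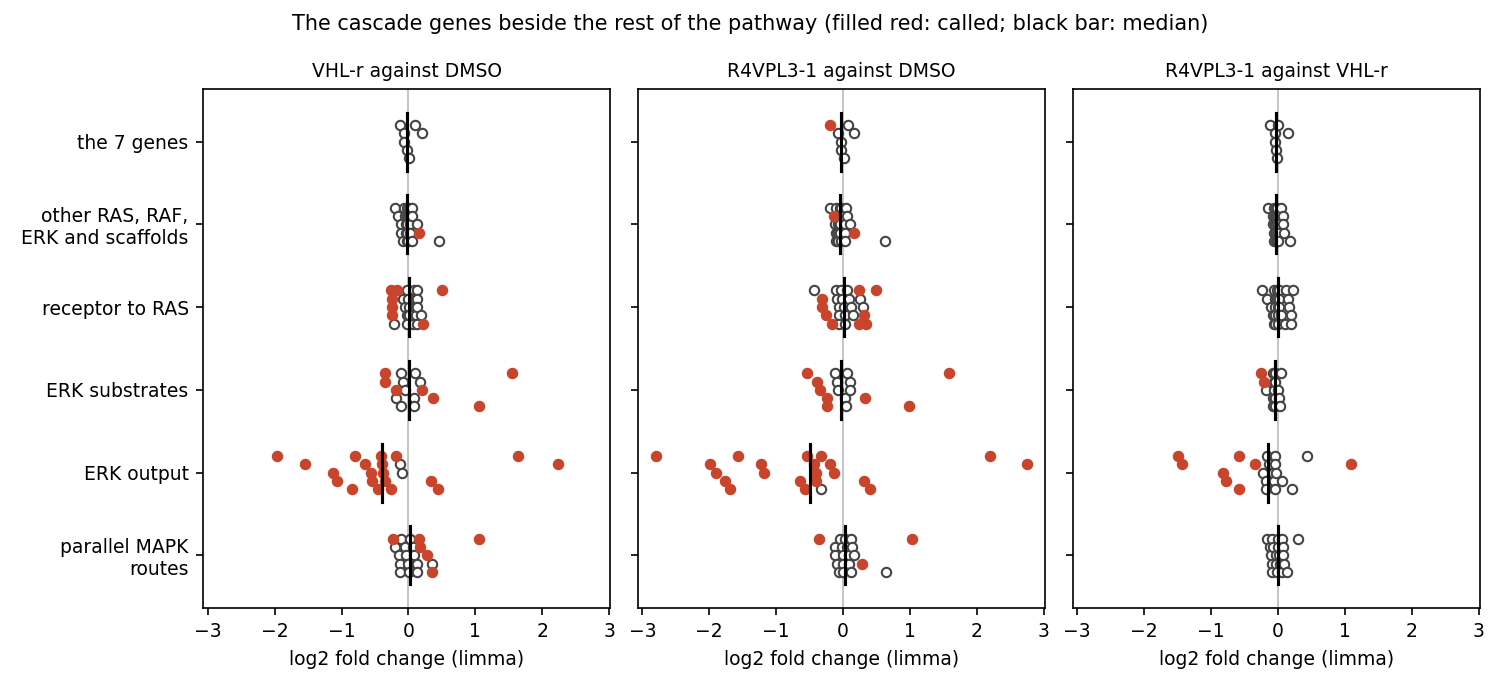
Limma log2 fold changes of the 7 genes and of 5 lists of the pathway in 3 comparisons, with 1 point per gene, filled red where called at an adjusted p of at most 0.05, and a black bar at the median. The medians of the 7 genes and of their immediate relatives lie near 0. Among the relatives CNKSR1 stands apart, at 0.45 in VHL-r and 0.63 in R4VPL3-1 against DMSO, and was not called. The ERK output list, chosen with earlier results of these data known, has medians of -0.40, -0.49 and -0.15.

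The melanoma label was checked against 14 markers, of which 11 passed the filter. SOX10 was high, at 17547 ± 482 normalized counts in DMSO (SD, n = 3), as were MCAM, at 13358 ± 551, and CSPG4, at 14415 ± 638, whereas MLANA was at 0 in all 9 libraries and TYR at 0 in all 3 DMSO libraries. The summed level of the 14 was 61111 to 65177 in DMSO, 50341 to 56326 in VHL-r and 48749.6 to 52374 in R4VPL3-1, and SOX10 fell by 0.79 and 1.06 on the log2 scale. In all, 3 of 11 fell in VHL-r and 5 in R4VPL3-1 against DMSO, the latter 3 without DMSO replicate 1 or R4VPL3-1 replicate 1, and 1, SOX10, was lower in R4VPL3-1 than in VHL-r, a call lost without VHL-r replicate 2, VHL-r replicate 3 or R4VPL3-1 replicate 1. Of 12 markers of other cell types, 6 passed the filter, with CD68 and KRT1 under 1 normalized count in the mean of every group. Their summed level was 1885 to 2453 in DMSO, 1613 to 3305 in VHL-r and 1895 to 2382 in R4VPL3-1, mostly from the collagen genes COL1A1 and COL1A2, and 1, KRT14, was called lower in R4VPL3-1 against DMSO. Over all genes tested, the share called lower was 9.51% in VHL-r and 11.8% in R4VPL3-1 against DMSO, and 0.729% in R4VPL3-1 against VHL-r. SOX10 was called lower in both compounds against DMSO. NRAS differed by -12.8% in R4VPL3-1, which was called, and by -5.00% in VHL-r, which was not. The part of the marker fall in the NRAS result was not tested.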

How the data were processed

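RNA from 9 cultures of A375R cells was sequenced by the authors as strand-specific single reads of 100 bases, aligned to GRCh38 by STAR and counted per gene by htseq-count. The authors deposited the resulting signal, the reads of each of 62710 genes divided by a size factor from DESeq2 (1.36.0 per the labels), with 2 decimals. Reads on exons of more than 1 gene of a strand are not assigned by that counting. Whole reads were recovered from the steps of the values, and 100.0% of the values above 0 came out whole within 0.1 of a read. No value column was left out.

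Values were tested by limma (3.58.1, R 4.3.3) with its trend option on log2(value + 1), over the 15230 genes averaging 10 or more, in a single-factor fit of all 9 libraries without a replicate block. A gene was called where its p, adjusted by Benjamini-Hochberg over all genes tested, was 0.05 or less. Fold changes on this scale understate those of low genes, and intervals are at 95%. On the recovered reads edgeR (4.0.16) called 3034, 3857 and 297 genes in VHL-r against DMSO, R4VPL3-1 against DMSO and R4VPL3-1 against VHL-r, and DESeq2 (1.42.0) called 2641, 3357 and 322. The fit was tested on simulated data. The alternatives changed the pseudocount to 0.1 or 5, the filter to none or to a mean of 50, the scaling to TMM or the upper quartile, and the threshold to 0.01. Others used the robust option, a replicate block or only the 6 libraries compared, or left out 1 replicate at a time.

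Exons, lengths and shared 100-base windows came from GENCODE 44, whose positions matched those of the table for all 7 members, and promoters came from RefSeq on GRCh38.p14. Named genes are the 7 members, up to 4 called genes of largest change per list and comparison, and the 2 genes nearest in profile to a called member. HRAS, KSR2, CNKSR1 and single markers beyond this rule were named after their values were seen. The members and lists were chosen with earlier results of these data known, and some genes of the pathway are not reported here.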

Additional observations from a re-analysis of the deposited data

How the results depend on the processing

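The count of members called was 0, 1 and 0 in VHL-r against DMSO, R4VPL3-1 against DMSO and R4VPL3-1 against VHL-r under every alternative run, and NRAS kept its direction in all of them. Over all genes, a threshold of 0.01 called 1885 in VHL-r against DMSO and 2494 in R4VPL3-1 against DMSO, fewer by its construction. Leaving out each library gave 182 to 358 genes in R4VPL3-1 against VHL-r. Some members that were not called changed sign, and none was called when it did. ARAF in R4VPL3-1 against VHL-r was 0.0021 with TMM, 0.0061 with upper quartile scaling and 0.0035 with edgeR, and -0.031 to 0.041 with libraries left out. With libraries left out, ARAF was -0.062 to 0.00064 and MAP2K2 -0.023 to 0.050 in VHL-r against DMSO, MAPK3 -0.15 to 0.012 in the same comparison and -0.097 to 0.064 in R4VPL3-1 against VHL-r, BRAF -0.026 to 0.083, ARAF -0.066 to 0.013 and KSR1 -0.028 to 0.34 in R4VPL3-1 against DMSO, and KSR1 -0.19 to 0.12 in R4VPL3-1 against VHL-r, on the log2 scale; the cause was not tested. The order of NRAS, ARAF, MAP2K1 and MAP2K2 by level per kilobase became 4, 3, 2 and 1 with canonical lengths. KSR1 had 52 to 94 reads, which limits its precision, with a counting error of 11.5% to 11.9% within a spread between replicates of 16.4% to 25.1%.

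The groups share replicate numbers. Same-numbered libraries had correlations of deviations from the group means of -0.006 to 0.121, and differently numbered ones of -0.148 to 0.098. The main fit left the numbers unpaired, as in the study's methods, although a weak pairing remains possible. With a replicate block, limma called 3451, 4241 and 389 genes in the 3 comparisons, more than the 3016, 3792 and 285 without it. It called 0, 1 and 0 members, and NRAS in R4VPL3-1 against DMSO had a limma adjusted p of 0.00415.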
